A study of Mus musculus with 8 samples.

Results

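The potassium, sodium and HCN channel genes of the mouse heart were described in knockout hearts lacking Ssbp1 and in control hearts. Members were all protein-coding genes of the deposited table with a name starting with Kcn, with Scn and a digit, or with Hcn and a digit. This gave 112 genes of 55383 in the table: 94 Kcn, 14 Scn and 4 Hcn genes. Of these, 49 reached 10 normalized counts in 2 or more of the 4 hearts compared (38 Kcn, 8 Scn and 3 Hcn genes), and the other 63 are accounted for at the end.

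Both groups are heart tissue of mice on an inbred C57BL/6N nuclear background, about 5 weeks old, sequenced as total RNA in strand-specific TruSeq libraries. The knockouts carry the label Ssbp1-/- and the controls the label Ssbp1+/+, with 2 hearts in each group. In the study, exon 3 of Ssbp1, which encodes mtSSB, a protein that coats single-stranded DNA in mitochondria, was flanked by loxP sites and removed by Cre under the muscle creatine kinase promoter (Ckmm), which is active in heart muscle cells and skeletal muscle and leaves the gene in the other cells of the heart. The sample labels describe this cross for all mice alike and do not say which of them carried Cre. The title and the genotype label contradict each other for 2 further mice, which entered no comparison.

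Heart muscle cells fire because sodium channels open first and potassium channels then bring the membrane back to rest. A sodium channel is a single large alpha subunit with small beta subunits, whereas a potassium channel is assembled from several Kcn pore subunits around a shared pore, often with Kcne, Kcnip or Kcnab partners. The pore subunits differ in what opens them: voltage (Kcna, Kcnb, Kcnd, Kcnh, Kcnq), a fall in ATP (Kcnj8 and Kcnj11 with the sulfonylurea receptors Abcc9 and Abcc8), G proteins (Kcnj3 and Kcnj5) or calcium (Kcnn), while Kcnk3, Kcnj2 and Kcnj12 are open at rest. HCN channels carry the inward pacemaker current at negative voltages.

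What most Kcn and Hcn members share beyond their names is the selectivity filter, a run of 5 residues that strips water from the potassium ion. The coding sequence of each gene (GENCODE vM21 on GRCm38, the principal isoform) was searched on the coding strand for codons of threonine, serine or cysteine, then valine, isoleucine, threonine or leucine, then glycine, then tyrosine, phenylalanine or leucine, then glycine. This pattern was found in 84 of the 112 members, against 1.82% of 21556 protein-coding genes (longest isoform). Among the genes past the filter on low counts it was found in 33 of 38 Kcn genes, 3 of 3 Hcn genes and 0 of 8 Scn genes. The 5 Kcn genes without it were Kcne1, Kcne4, Kcnip2, Kcnip3 and Kcnmb1, all of which encode subunits that sit beside a pore. The match is by letters alone, and it also falls in Kcnab1 and Kcnab2, whose proteins are cytosolic. The genes Kcnk2, Kcnk3 and Kcnk6 of two-pore channels hold it at 2 places, and so does Hcn4, which is no two-pore channel. The sequences of Kcnj11, Kcnj8 and Kcnj2 are shown with the 15 bases of the filter in capitals, because they set the ATP-sensitive pores Kcnj11 and Kcnj8, with a phenylalanine codon as the fourth of the 5, apart from the resting inward rectifier Kcnj2 with a tyrosine codon there.
Kcnj11 (chr7:46099487-46099516, minus strand): caggtgACCATTGGTTTCGGCgggcgcatg
Kcnj8 (chr6:142566439-142566468, minus strand): caagtgACCATTGGGTTTGGAgggagaatg
Kcnj2 (chr11:111072201-111072230, plus strand): cagacaACCATTGGCTATGGTttcaggtgt

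Depth was 25558246 and 25682093 reads in the knockouts and 24067849 and 19716305 reads in the controls. Of these, 10734547 and 11259234 fell on nuclear genes in the knockouts, and 8981637 and 6568812 in the controls. Both controls were thus shallower than both knockouts, and control replicate 2 was the shallowest. A single read stood for 0.824 and 0.765 normalized counts in the knockouts, and for 0.977 and 1.35 in the controls. The targeted gene Ssbp1 (chromosome 6, 40471352 to 40484700) had 169.7 and 163 normalized counts in the knockouts, against 177 and 216 in the controls (log2 fold change -0.23, standard error, SE, 0.16, limma adjusted p = 0.89), a weak check of the labels, since it also counts exons outside the deletion and cells without Cre. The 8 markers of heart muscle cells were all past the filter, with a summed level of 630441 and 606134 in the knockouts and 634238 and 598925 in the controls. Of the 6 atrial markers, Myl7, Sln and Bmp10 were at 0 to 2 normalized counts in each heart. In whole tissue, fewer cells of a type and less RNA per cell cannot be told apart. Log2 fold changes are knockout over control on the scale of log2(normalized count + 1), which understates the change of low genes. Their p-values are two-sided, from limma with a mean-variance trend over all 14522 genes past the filter, adjusted by the Benjamini-Hochberg method, and with 2 hearts a group they measure the spread between these hearts only.

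None of the 49 channel genes passed the adjusted threshold of 0.05 in limma. Of all genes tested, limma called 11 higher (0.0757%) and 6 lower (0.0413%) in the knockouts. At an unadjusted p under 0.05, 0 channel genes were higher and 2 were lower (4.08% of the 49), among them Kcne1, beside 3.08% of all genes higher and 3.02% lower. edgeR also called 0 channel genes, beside 0.0895% of all genes called higher and 0.0413% called lower. At an unadjusted p under 0.05 edgeR also had 2 lower, with Kcne1 among them, and 0 higher, beside 2.9% of all genes lower and 3.22% higher. DESeq2 called 1 channel gene lower and 0 channel genes higher, beside 0.131% of all genes called lower and 0.296% called higher. It had 3 channel genes lower at an unadjusted p under 0.05 (6.12% of the 49), with Kcne1 and Kcna5 among them, and 0 higher. Of all genes, 1.86% were lower and 1.76% higher at this threshold in DESeq2.

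**Figure D1:**
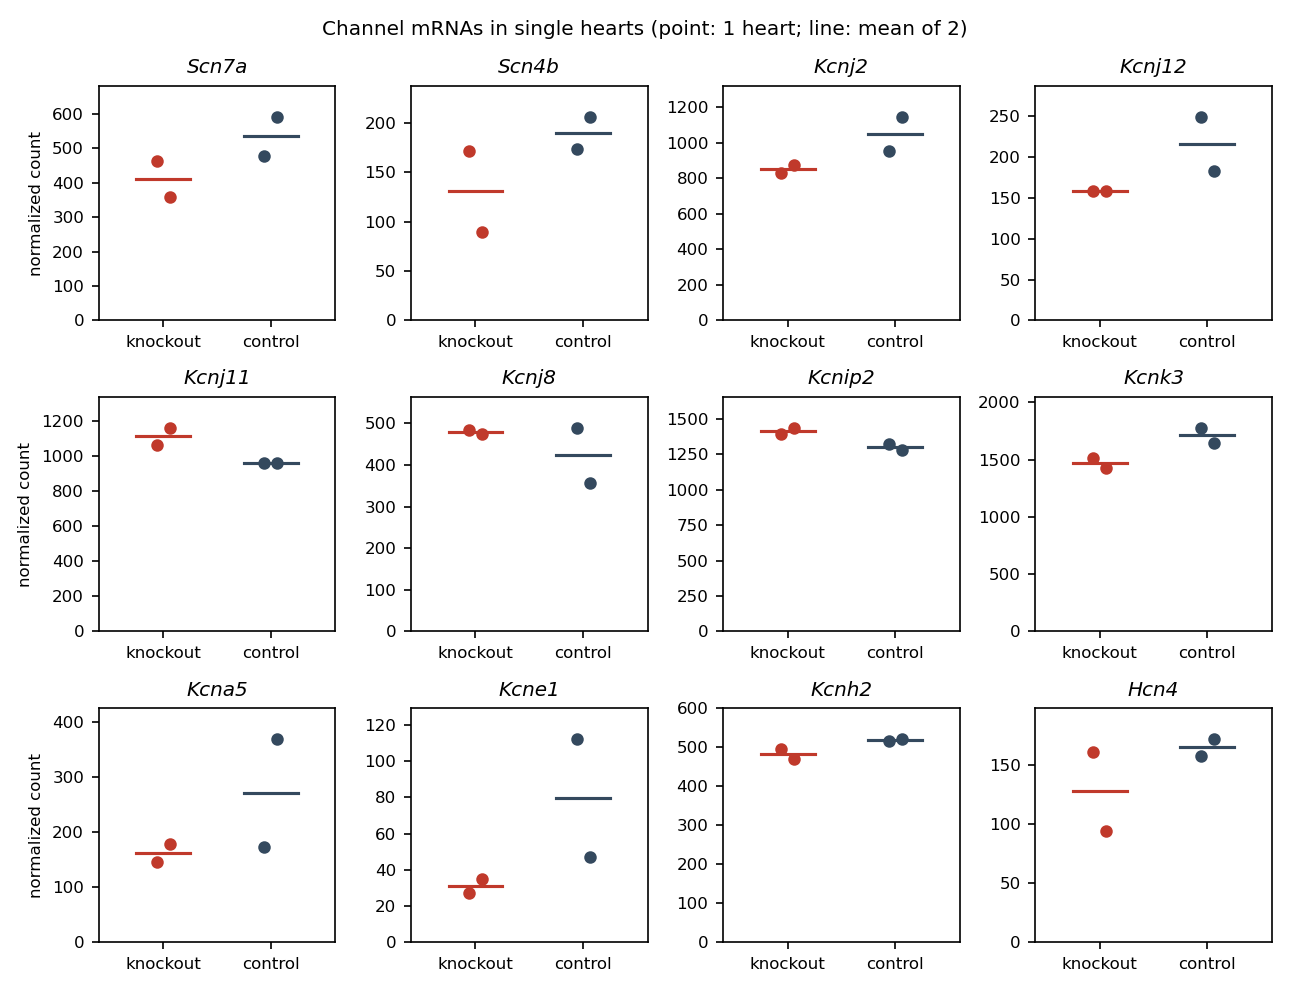
Normalized counts (linear vertical axes from 0) of 12 channel genes in 2 knockout (red, left) and 2 control (blue, right) hearts; a point is 1 heart and a line the mean of 2. The Kcnk3 points lie at 1517 and 1431 in the knockouts and at 1781 and 1648 in the controls, whereas the points of Kcnj8, Kcna5 and Hcn4 overlap between the groups.

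Sodium channel alpha subunits past the filter included Scn7a, Scn4a, Scn3a and Scn2a. Scn7a, the gene of a channel known as a sensor of the sodium level, had 465 and 359.6 normalized counts in the knockouts, against 479 and 593 in the controls. Scn4a, the alpha subunit of skeletal muscle, had 229.8 and 166 in the knockouts, against 239 and 273 in the controls. In both genes all knockout hearts lay below all control hearts, by a log2 fold change of -0.38 for Scn7a (SE 0.17, limma adjusted p = 0.809) and of -0.39 for Scn4a (SE 0.20, adjusted p = 0.815). Without knockout replicate 2 these came to -0.20 for Scn7a and -0.15 for Scn4a, without knockout replicate 1 Scn4a came to -0.62, and without control replicate 2 Scn7a came to -0.23. Beside Scn7a, the 6 fibroblast markers, all past the filter, summed to 5561 and 6084 in the knockouts and to 6991 and 6735 in the controls, and the 8 markers of neurons and Schwann cells, 3 of them past the filter, to 79.9 and 67.3 in the knockouts and to 93.8 and 87.6 in the controls. The part of these cells in the value of Scn7a was not tested. Beside Scn4a, 1 of 6 skeletal muscle markers was past the filter. Their sum was 24.7 and 18.4 in the knockouts and 30.3 and 16.2 in the controls, which overlap. Single markers were low and went both ways. Mylpf was at 2.47 and 2.3 in the knockouts, against 9.77 and 5.39 in the controls. Tnnt3 was at 4.94 and 3.06 in the knockouts, against 2.93 and 2.69 in the controls, and Myh1 was at 0 in all 4 hearts. The part of skeletal muscle cells in the value of Scn4a was not tested. Scn3a and Scn2a, alpha subunits of neurons, overlapped between the groups.

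Of the beta subunits, which tune gating and anchor the channel, 3 of 4 were past the filter. Scn4b had 171 and 89.5 normalized counts in the knockouts, against 173 and 206 in the controls, with a log2 fold change of -0.60 (SE 0.31, limma adjusted p = 0.825). The groups touched without overlapping, since the higher knockout heart lay just below the lower control heart, and without knockout replicate 2 the log2 fold change was -0.14. Scn3b was past the filter through the knockouts alone, at 11.5 and 17.6, against 7.82 and 8.08 in the controls, so its difference was in part fixed by the filter and no test is read from it. Scn2b was below the filter.

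The ATP-sensitive channels, which open when ATP falls, were present with both pore genes and both receptors. Kcnj11, the pore of the muscle cell membrane, had 1065 and 1163 normalized counts in the knockouts, against 963 and 961 in the controls. The knockout hearts lay above the control hearts, with a log2 fold change of 0.21 (SE 0.10, limma adjusted p = 0.809) and a 95% interval of -0.03 to 0.45. Kcnj8, the pore of vascular smooth muscle and pericytes, had 483 and 474 in the knockouts, against 489.6 and 357 in the controls. Both knockout values lay within the range of the controls, and the log2 fold change of 0.19 (SE 0.17, adjusted p = 0.906) came to -0.03 without control replicate 2.

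Within a heart the ratio of Kcnj11 to Kcnj8 does not depend on the scaling between libraries. It was 2.21 and 2.45 in the knockouts, against 1.97 and 2.69 in the controls. The mean log2 ratios differed by 0.02, with p = 1 in an exact two-sided permutation test of 2 hearts against 2, whose smallest possible p is 0.333. Without control replicate 1 the difference of the log2 ratios was -0.21 and without knockout replicate 2 it was -0.06. The 8 markers of smooth muscle and pericytes, all past the filter, summed to 12930 and 15610 in the knockouts and to 15672 and 13965 in the controls, and the 2 groups overlapped as they did for Kcnj8.

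Each receptor gene lies beside a pore gene, and which receptor pairs with which pore in these hearts was not tested. Abcc8 lies 3758 bases from Kcnj11 on chromosome 7, and Abcc9 16247 bases from Kcnj8 on chromosome 6. Abcc8, the receptor best known from pancreatic beta cells and also used in mouse atria, had 444 and 479.7 normalized counts in the knockouts, against 384 and 507 in the controls (log2 fold change 0.07, SE 0.16, limma adjusted p = 0.968). Abcc9, the receptor of heart and vascular muscle, had 5615 and 5156 in the knockouts, against 5352 and 6306 in the controls (log2 fold change -0.11, SE 0.11, adjusted p = 0.916). Both overlapped between the groups.

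The strong inward rectifiers Kcnj2 and Kcnj12 hold the resting potential as the current IK1. Kcnj2 had 829 and 877 normalized counts in the knockouts, against 953 and 1146 in the controls, and Kcnj12 had 158 in each knockout, against 249 and 183 in the controls. Neither gene overlapped between the groups. The log2 fold change was -0.29 for Kcnj2 (SE 0.12) and -0.43 for Kcnj12 (SE 0.19), each with a limma adjusted p of 0.806. Their size depended on the control hearts: without control replicate 2 Kcnj2 came to -0.16, and without control replicate 1 Kcnj12 came to -0.21. Kcnj14 was past the filter at 5.36 to 14.8 normalized counts and overlapped, and Kcnj4 was below the filter.

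The G protein-gated rectifiers Kcnj3 and Kcnj5 slow the heart on vagal stimulation and are best known from atria and the sinus node. Kcnj3 had 648 and 542 normalized counts in the knockouts, against 600.1 and 707 in the controls (log2 fold change -0.14, SE 0.14), and the difference was -0.00704 without knockout replicate 2 and -0.02 without control replicate 2. Kcnj5 had 704 and 550.1 in the knockouts, against 693 and 652 in the controls (log2 fold change -0.11, SE 0.14), and the difference was 0.07 without knockout replicate 2. The groups overlapped for both. The atrial markers past the filter (3 of 6) did not separate the groups either. The sum over the list, most of it Nppa, was 467 and 1153 in the knockouts and 604 and 1068 in the controls. Myl7, Sln and Bmp10 were at 0 to 2 in each heart, so this sum is a poor measure of atrial tissue. The part of atrial cells in the values of Kcnj3 and Kcnj5 was not tested. Kcnj15, the last inward rectifier past the filter, had 26.4 and 28.3 in the knockouts, against 27.4 and 26.9 in the controls, with a difference of 0.01 (SE 0.32) that was -0.04 without knockout replicate 2 and -0.00249 without control replicate 2.

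The transient outward current Ito, which dominates early repolarization in mouse ventricle, is built from Kcnd2 and Kcnd3 pores with the subunit Kcnip2. Kcnip2 had 1392 and 1439 normalized counts in the knockouts, against 1320.4 and 1281 in the controls, a log2 fold change of 0.12 (SE 0.09, limma adjusted p = 0.890). The knockout hearts lay just above the control hearts, and the 95% interval of the log2 fold change was -0.09 to 0.34. Kcnd2 had 381 and 375 in the knockouts, against 478 and 350.3 in the controls, a log2 fold change of -0.11 (SE 0.17) that was 0.11 without control replicate 1. Kcna4, which carries the slow part of the current, had 61.8 and 58.9 in the knockouts, against 46.9 and 39.1 in the controls. It lay higher in both knockout hearts, with a log2 fold change of 0.49 (SE 0.25, adjusted p = 0.819). Kcnd3 and Kcnip3 overlapped between the groups.

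The delayed rectifiers of the Kv1 and Kv2 families end the mouse action potential, and 8 of their 12 genes were past the filter. Kcna5, the pore of the ultrarapid current, had 146 and 178 normalized counts in the knockouts, against 173 and 369 in the controls. The difference of -0.65 (SE 0.35, limma adjusted p = 0.835) rested on the high control heart, since it was -0.10 without control replicate 2. Kcna5 lies in a cluster on chromosome 6 with Kcna1 (104984 bases away) and Kcna6 (172916 bases away), named here after their values were seen. Their log2 fold changes were -0.59 for Kcna1 (SE 0.35) and -0.15 for Kcna6 (SE 0.47), and in both a control replicate 2 well above control replicate 1 recurs, with 67.4 against 38.1 in Kcna1 and 28.3 against 16.6 in Kcna6. With a heart left out they ranged from -0.99 to -0.19 for Kcna1 and from -0.52 to 0.22 for Kcna6.

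Silent Kv subunits form no channel alone and modify Kv2 pores. Kcng2 had 650.0 and 615 normalized counts in the knockouts, against 785 and 573 in the controls (log2 fold change -0.08, SE 0.16), and the difference was 0.14 without control replicate 1. Kcnv2 had 51.9 and 39.8 in the knockouts, against 52.8 and 72.7 in the controls (log2 fold change -0.44, SE 0.29, limma adjusted p = 0.877). Kcng2 overlapped between the groups, and in Kcnv2 the higher knockout heart lay just below the lower control heart. The log2 fold change of Kcnv2 was -0.21 without control replicate 2, -0.25 without knockout replicate 2 and -0.67 without control replicate 1.

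The rapid and slow delayed rectifier currents IKr and IKs rest on Kcnh2 and Kcnq1, the genes of inherited long QT syndrome in humans. Kcnh2 had 496 and 470.5 normalized counts in the knockouts, against 517 and 523 in the controls (log2 fold change -0.11, SE 0.11, limma adjusted p = 0.923). The 95% interval of its fold was 0.78 to 1.11, and the log2 fold change was -0.07 without knockout replicate 2. Kcnq1 had 445 and 306 in the knockouts, against 415 and 287 in the controls (log2 fold change 0.10, SE 0.24), which was -0.17 without knockout replicate 1 or without control replicate 2. Each group of Kcnq1 held a high and a low heart, and the spread within a group was larger than the difference between them.

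Kcne1, the small partner of Kcnq1, had the largest log2 fold change in size of the 49. It had 27.2 and 35.2 normalized counts in the knockouts, against 112 and 47.2 in the controls, so the groups did not overlap but the controls spread widely. The log2 fold change was -1.21 (SE 0.44, limma adjusted p = 0.796), with -0.59 left without control replicate 1 and -1.83 without control replicate 2. The values rest on 33 and 46 reads in the knockouts and 115 and 35 reads in the controls. Kcne1 in the adult mouse heart is known mainly from the conduction system. Of the 6 conduction system markers, 4 were past the filter, with a sum of 581 and 397 in the knockouts and of 580 and 521 in the controls, and Isl1 was at 0. Among them Cntn2, an adhesion molecule of Purkinje cells, had 20.6 and 23.7 in the knockouts, against 47.9 and 133 in the controls (log2 fold change -1.81, unadjusted p = 0.00974, limma adjusted p = 0.664). The 4 together had a median log2 fold change of -0.08, with Tbx3 at -0.30, Cacna1d at 0.25 and Cacna1g at 0.13. The part of the conduction system in the value of Kcne1 was not tested. Kcne4, named after its values were seen, also did not overlap, with 14.8 and 14.5 in the knockouts, against 26.4 and 24.2 in the controls (log2 fold change -0.75, SE 0.39). Kcnq5, a relative of Kcnq1 best known from neurons, had 10.7 and 5.36 in the knockouts, against 13.7 and 10.8 in the controls, a log2 fold change of -0.61 (SE 0.62) that was -0.17 without knockout replicate 2.

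Neither of the pacemaker genes Hcn4 and Hcn2 was called, and both had negative log2 fold changes. Hcn4, the main pacemaker channel of the sinus node, had 161 and 94.1 normalized counts in the knockouts, against 157 and 172 in the controls. Only knockout replicate 2 was low, and without it the log2 fold change of -0.42 (SE 0.27, limma adjusted p = 0.877) was -0.03. The same heart had the lowest conduction system sum of the 4. The largest part of that sum, Cacna1g, was however lowest in control replicate 2, at 212 against 239 in knockout replicate 2. The part of the conduction system in the value of Hcn4 was not tested. Hcn2, the form of ventricular muscle, had 199 and 181 in the knockouts, against 216 and 255 in the controls, with no overlap (log2 fold change -0.30, SE 0.16, adjusted p = 0.815), and -0.19 was left without control replicate 2.

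Two-pore potassium channels set the background leak. Kcnk3, the acid-sensitive TASK channel gene, had 1517 and 1431 normalized counts in the knockouts, against 1781 and 1648 in the controls. The groups did not overlap, with a log2 fold change of -0.22 (SE 0.09, limma adjusted p = 0.806) and a 95% interval of the fold of 0.74 to 1.01. Kcnk6 had 65.1 and 78.8 in the knockouts, against 87.0 and 74.1 in the controls, and overlapped, with a log2 fold change of -0.16 that was -0.03 without knockout replicate 1. Of the channels opened by calcium or sodium, 5 of 12 genes were past the filter and all overlapped. Kcnn2 had 210.1 and 159 in the knockouts, against 236 and 189 in the controls (log2 fold change -0.20, SE 0.20). This difference was -0.00488 without knockout replicate 2 and -0.04 without control replicate 1. Kcnn1 had 163 and 124 in the knockouts, against 175 and 106 in the controls (log2 fold change 0.06, SE 0.28). The difference of Kcnn1 was -0.30 without control replicate 2 and -0.14 without knockout replicate 1.

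**Figure D2:**
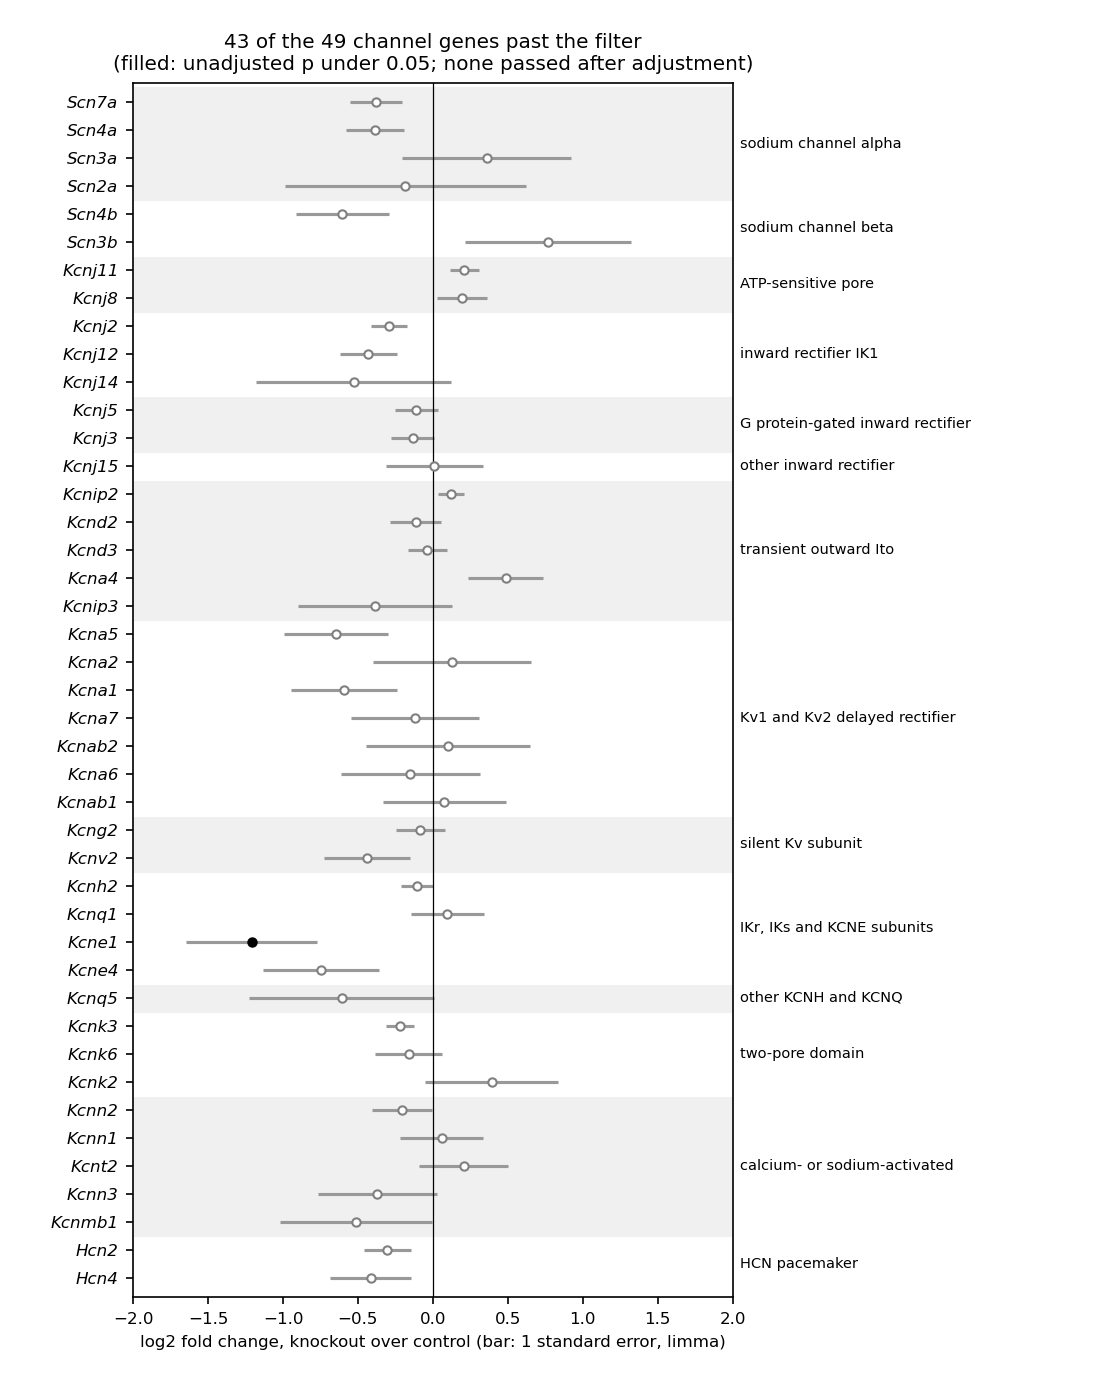
Log2 fold changes, knockout over control, of 43 of the 49 channel genes past the filter, grouped by role from sodium channels (top) to pacemaker channels (bottom); points are limma estimates and bars 1 standard error. The filled point is Kcne1 at -1.21, with an unadjusted p under 0.05, and no gene passed after adjustment.

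Over the 49 genes, 34 log2 fold changes were negative (69.4%) and 15 positive (30.6%), beside 49.5% negative and 50.5% positive among all genes tested, and the median was -0.16, beside 0.00239 for all genes. The median was -0.29 without knockout replicate 1 and -0.07 without knockout replicate 2. By family it was -0.12 for the 38 Kcn genes, -0.29 for the 8 Scn genes and -0.42 for the 3 Hcn genes. In 14 genes (28.6%) both knockout hearts lay below both control hearts, beside 17.5% of all genes, and in 5 genes (10.2%) they lay above, beside 18.1%. Among the 14 were Scn7a, Scn4a, Scn4b, Kcnj2, Kcnj12, Kcna1, Kcnv2, Kcne1, Kcne4, Kcnh2, Kcnq5, Kcnk3 and Hcn2, and the 5 were Kcnj11, Kcnip2, Kcna4, Kcnk2 and Scn3b. Scn3b passed the filter through the knockouts alone, so its place among the 5, and among the 15 positive genes, was in part fixed by the filter. The members share the same 4 hearts and are not replicates of each other, so these counts are a description.

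**Figure D3:**
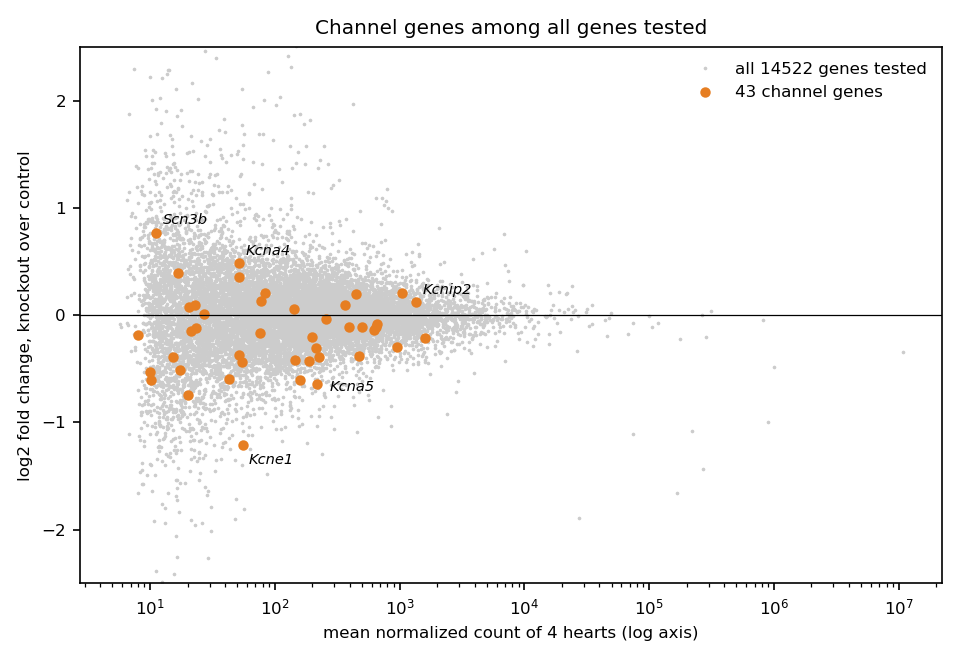
Log2 fold change, knockout over control, against the mean normalized count of 4 hearts (log axis) for all 14522 genes tested (grey) and 43 of the 49 channel genes (orange); 41 genes beyond 2.5 in size are not drawn. Kcne1 at -1.21 lies among low genes with a wide spread, whereas Kcnip2 at 0.12 lies among high genes with a narrow one.

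Standard errors fell with the level. This was in part set by the fit, since its mean-variance trend ties the variance of a gene to its level. The median standard error of the log2 fold change was 0.51 for the 17 members with a mean normalized count under 50, 0.28 for the 14 between 50 and 200 and 0.14 for the 18 at 200 or more. In these 18 genes 4 log2 fold changes were positive and 14 negative, between -0.65 and 0.21. Of all 6046 genes tested at a mean of 200 or more, 3078 were positive and 2968 negative. The 18 genes share the same hearts, so their count is a description. At this depth a low gene such as Kcnk2, a mechanosensitive two-pore channel, had a 95% interval of its fold of 0.62 to 2.77.

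Between genes, levels were compared per kilobase of exon. Kcnk3 had 371 normalized counts per kilobase in the knockouts and 431 in the controls. Kcnip2 had 407 in the knockouts and 374 in the controls. In the knockouts Kcnip2 lay above Kcnk3, whereas in the controls Kcnk3 lay above Kcnip2, and over the 4 hearts their ranges overlapped. Kcnj11 followed with 303 in the knockouts and 262 in the controls, then Kcng2 with 212 in the knockouts and 227 in the controls, Kcnj8 with 188 in the knockouts and 166 in the controls, and Kcnj2 with 157 in the knockouts and 193 in the controls. Over the 4 hearts, the range of Kcnip2 did not overlap that of Kcnj11, and that of Kcnj2 did not overlap that of Kcnj5, which came next.

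**Figure D4:**
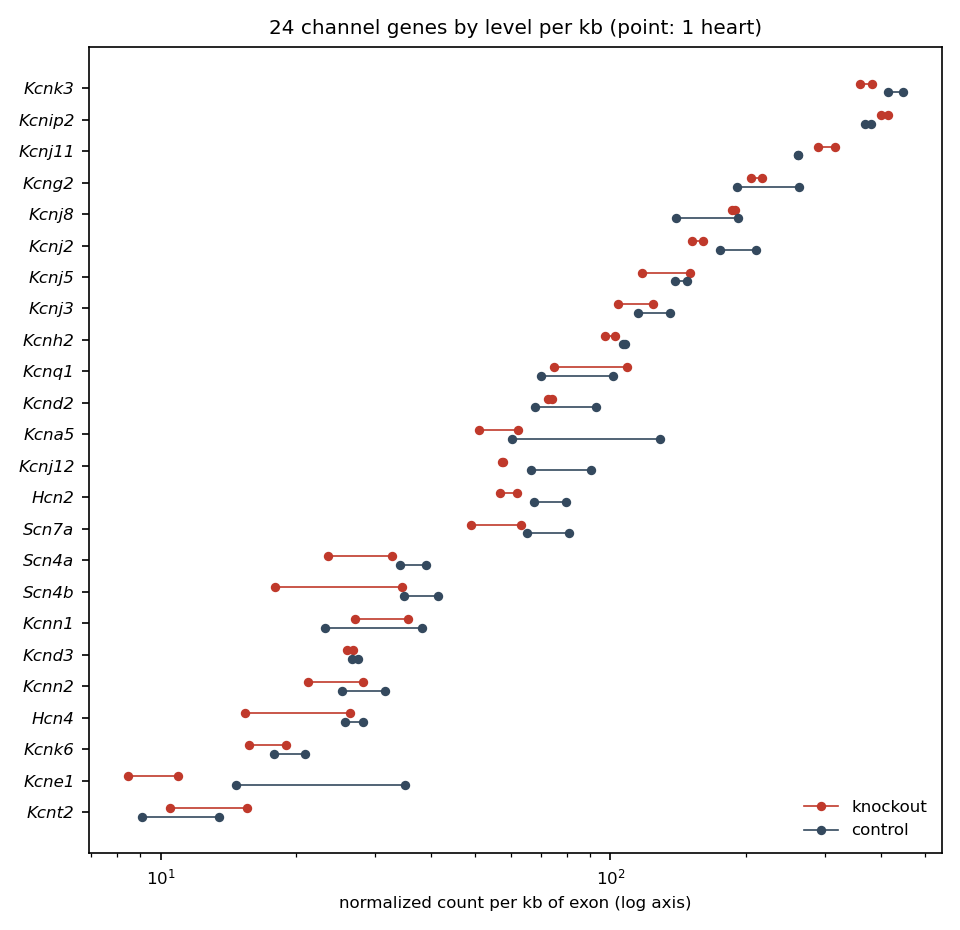
Normalized counts per kilobase of exon (log axis) of 24 channel genes of high level, in knockout (red, upper) and control (blue, lower) hearts; each point is 1 heart and the line joins the 2 hearts of a group. Kcnip2 averaged 407 in the knockouts and 374 in the controls, and most neighbours in the order overlap.

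Proteins that place, gate or degrade these channels were read from lists of partner genes. None was called. Of 16 channel partner proteins, 13 were tested, with 2 positive and 11 negative log2 fold changes and a median of -0.02. Among all genes tested, 50.5% were positive and 49.5% negative. The smallest p was that of Nedd4l, a ubiquitin ligase that removes sodium channels from the membrane, with 423 and 362 normalized counts in the knockouts, against 464 and 569 in the controls (log2 fold change -0.39, unadjusted p = 0.039, limma adjusted p = 0.798). Rangrf, which helps sodium channels to the membrane, had 273 and 278 in the knockouts, against 197 and 248 in the controls (log2 fold change 0.32, SE 0.16, adjusted p = 0.815). Fgf14, an intracellular partner of sodium channels, had 10.7 and 9.95 in the knockouts, against 13.7 and 32.3 in the controls (log2 fold change -0.97, SE 0.56, adjusted p = 0.845). Its counts were low, and control replicate 2 lay well above the other hearts.

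Of 9 genes of the sodium pump and the sodium exchangers, 8 were tested, with 4 positive and 4 negative log2 fold changes and a median of 0.000598. The smallest p was that of Atp1b2, a beta subunit of the pump, with 101 and 85.7 normalized counts in the knockouts, against 77.2 and 64.7 in the controls (log2 fold change 0.39, SE 0.22, limma adjusted p = 0.837). All 11 transcription factors known to set channel genes were tested, with a median of 0.02, and Irx4, a transcription factor of ventricular muscle, had 395 and 285 in the knockouts, against 259 and 276 in the controls (log2 fold change 0.32, SE 0.18, limma adjusted p = 0.837).

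Of the 63 members below the filter, 21 were at 0 in all 4 hearts and 8 reached a normalized count of 10 in a single heart. The highest value among them was 30.5, for Kcnd1 in knockout replicate 1, beside 7.65 in the other knockout and 2.93 and 2.69 in the controls. Just outside the filter lay Kcng4, with 9.06 and 9.95 in the knockouts and 7.82 and 12.1 in the controls, and just inside lay Kcnj14 and Scn2a, with 10.7 as the second highest of their 4 values. Of the 49 members past it, 42 were at 10 or more in every heart.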

How the data were processed

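Total RNA of hearts was sequenced. The authors mapped the reads (STAR 2.7.3a) on a GRCm38.p6 assembly in which nuclear copies of mitochondrial DNA were masked, counted them by strand (Salmon 1.1.0) and divided counts by a DESeq2 1.26.0 size factor per library; the deposited signal is this normalized count. Of the values, 100% were whole multiples of 1 read within 0.001, so reads were recovered. The deposited table of the authors' own comparison (fold changes, p-values) was not used. Groups follow labels that agree (2 knockouts, 2 controls). Positions and exon lengths come from GENCODE vM21 (GRCm38), matched for 55107 of 55383 rows.

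Genes with at least 10 in 2 of 4 libraries (14522) went into limma (3.58.1, R 4.3.3) as log2 of the value plus 1, checked on simulated data; edgeR 4.0.16 and DESeq2 1.42.0 on recovered reads, other pseudocounts, filters and scalings, a replicate block and each heart left out were alternatives. DESeq2 gave some low genes no adjusted p. Intervals are 95%.

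The members and lists were chosen with earlier results of these data known. Values are given for Kcnj8 and Kcnj11, the 2 highest members of each role, members with p under 0.05, and members without overlap at a mean of 50 or more; of partner lists, Abcc8, Abcc9 and up to 3 others by p. Of the 49, 43 are reported by name and drawn; the others are counted but not reported here, nor are some sequences. Nothing states separate litters or batches. Figures used Python 3.11.15 and matplotlib 3.10.9, and the permutation test scipy 1.17.1.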

Additional observations from a re-analysis of the deposited data

Results flagged for a closer look

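The 2 mice with contradictory labels, each from 2 technical runs that the authors combined, entered no comparison. In the mouse titled KO with the genotype label Ssbp1+/+, 4 channel genes were at 50 normalized counts or more and at least 1.5 times the highest control heart. Only channel genes were searched in this way. The share of all genes past this rule was not counted, so the 4 cannot be read as particular to channels. Hcn4 had 260.3 normalized counts there, against 157 and 172 in the controls. Scn4a had 515.2 there, against 239 and 273 in the controls. Kcna4 had 88.1 there, against 46.9 and 39.1 in the controls. Kcna6 had 63.7 there, against 16.6 and 28.3 in the controls. The labels do not settle which group this mouse belongs to, and nothing was averaged over it.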

How the results depend on the processing

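Over 15 settings, 26 named genes gave 387 pairs of gene and setting, of which 377 kept direction and side of the threshold. The exceptions were 10 reversals in 7 genes, each with a heart left out, where the log2 fold change ranged from -0.033 to 0.42 for Kcnj8, -0.29 to 0.067 for Kcnj5, -0.17 to 0.36 for Kcnq1, -0.30 to 0.41 for Kcnn1, -0.041 to 0.058 for Kcnj15, -0.31 to 0.14 for Kcng2 and -0.34 to 0.11 for Kcnd2; the cause was not tested. DESeq2 called 1 channel gene lower and the other settings 0. Of all genes, 11 were called higher and 6 lower; 2 higher without the filter, 17 higher with a filter of 50, 6 higher and 0 lower in limma without a trend, 43 higher and 19 lower in DESeq2, and 1 to 21 higher and 4 to 12 lower with a heart left out. Without a trend, 451 genes were higher and 479 lower at an unadjusted p under 0.05. The median over the 49 genes was -0.29 to -0.068 with a heart left out. The median over all genes was 0.016 with equal nuclear totals, 0.017 with TMM scaling, -0.000558 in edgeR, -0.0085 in DESeq2 and -0.0064 to 0.0077 with a heart left out. The log2 ratio of Kcnj11 to Kcnj8 differed by -0.21 to 0.24 with a heart left out. The knockouts and controls share only replicate numbers; with these as a replicate block, 23 genes were called higher, 7 lower and 0 channel genes, and the deviations of equal numbers correlated at r = 0.31, which does not establish pairing. A leave-out fit assumes that the lone heart varies as the others do.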

Other observations

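Some channel values of the 2 mice with contradictory labels are given singly. The mouse titled WT with the genotype label Ssbp1-/- had 1189 normalized counts of Kcnj11, 386 of Kcnj8, 720.5 of Kcnj2, 1367 of Kcnip2, 13.1 of Kcne1 and 321 of Kcna5. The mouse titled KO with the genotype label Ssbp1+/+ had 1177 normalized counts of Kcnj11, 443 of Kcnj8, 999.1 of Kcnj2, 1196 of Kcnip2, 81.3 of Kcne1 and 339 of Kcna5.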
